A study of Mus musculus with 6 samples.

Results

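The genes of fatty acid synthesis and oxidation were examined in MLE-12 cells that overexpressed NR4A1. The set comprised 36 genes, chosen by symbol for their roles, out of the 34745 genes in the expression table, and all 36 were found there. They code for enzymes that supply, build, desaturate and elongate fatty acids, for proteins that take up and activate them, and for the carnitine shuttle and beta-oxidation enzymes that burn them in mitochondria. After the default filter on low counts, 33 of the 36 genes were tested among 12941 genes. The carbohydrate-responsive factor gene Mlxipl, the AMPK subunit gene Prkaa2 and the fatty acid binding protein gene Fabp5 did not pass that filter.

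The MLE-12 line is of mouse lung epithelial origin and was obtained from a lung tumor of mice carrying the SV40 large T antigen, which keeps it dividing. One group of 3 libraries came from cells given a plasmid with the NR4A1 open reading frame in the pCMV-SPORT6 vector. The other group of 3 libraries came from cells given the pCMV-SPORT6 vector alone, so both groups were exposed to the Lipofectamine reagent and to the vector backbone. Expression from this vector is driven by a viral promoter and, after such a transfection, usually lasts for a short time and differs from cell to cell. RNA was taken from the whole culture in each case, so a lower level of a gene cannot be told apart from fewer cells that express it. Since no label states that the 3 libraries of a group are from separate cultures, p-values measure the spread between these libraries, which may be technical.

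Cells make fatty acids in the cytosol from acetyl-CoA. Acetyl-CoA carboxylase turns it into malonyl-CoA, which fatty acid synthase uses to extend the chain and which also blocks CPT1, the gate through which long-chain fatty acids enter mitochondria. In the lung, alveolar type II cells rely on this synthesis for the phospholipids of surfactant. NR4A1, also called Nur77, is an orphan nuclear receptor that binds DNA as a monomer at the NBRE element, an AGGTCA core with A bases before it.

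Library totals lay between 15019038 and 17574340 counts. Nr4a1 itself had 50660, 60093 and 68555 counts in the NR4A1 libraries against 428, 510 and 463 in the vector libraries, as labelled. Of 13 lung epithelial markers, Sftpc, Sftpb, Nkx2-1, Abca3, Krt8, Krt19 and Cdh1 had at least 189 counts in every library. Epcam had 2 to 22 counts, Lamp3 2 to 6 and Sftpd 0 to 2, and Sftpa1 and Cldn18 had 0 counts throughout. Krt18 had 164 counts in NR4A1 replicate 2 and 2 to 21 elsewhere. NR4A1 replicate 2 stood apart from the other 5 libraries. Its summed endothelial markers reached 146 CPM (counts scaled to the TMM-adjusted library size) against 17.4 to 27.8 elsewhere, with 10 of 12 markers highest there. Its adipocyte markers reached 36.9 CPM against 0 to 1.97, its muscle markers 327 against 7.03 to 10.2, its fibroblast markers 1553 against 946 to 1069, and its macrophage markers 6.55 against 3.23 to 4.54. Of these lists, 5 of 7 adipocyte, 6 of 10 muscle, 6 of 9 fibroblast and 4 of 9 macrophage markers were highest in that library. Lep, Myh7, Actc1 and Ckm had 0 counts throughout. Few genes carried the adipocyte and muscle sums in NR4A1 replicate 2, namely Fabp4 with 33.4 CPM, and Acta2 and Tagln with 229 and 81.9 CPM. The endothelial cadherin gene Cdh5 had 419 counts in that library and 0 in every other. The vector libraries also differed. Col1a2 and Pdgfra had 284 and 92 counts in vector replicate 1, 14 and 12 in replicate 2 and 10 and 12 in replicate 3. Col1a1, Col3a1, Dpt and Thy1 were likewise highest there among the vector libraries, while Dcn, Lum and Fbln1 were not. Dcn alone had 878 to 1031 CPM per library, so the fibroblast sum hides this difference.

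Among the 33 tested genes, 1 gene passed an adjusted p of 0.05 in edgeR, namely Acacb, which rose 2.75-fold. Over all tested genes, 0.240% passed this threshold in either direction, and 0.170% passed it with an increase of at least 2-fold. At an unadjusted p under 0.05, 4 of the 33 genes were higher (Acacb, Cd36, Acsl4 and Cpt1a), beside a background of 4.02%, and 2 were lower (Fads2 and Srebf1), beside 2.44%. Both Acacb and Cd36 also reached a 2-fold increase, a combination that 1.11% of all tested genes showed. The count of higher members was 2 without NR4A1 replicate 3 or without vector replicate 2. The count of lower members was 0 without NR4A1 replicate 1, vector replicate 1 or vector replicate 3, and 1 without NR4A1 replicate 2. Most of the remaining members had small fold changes. The 95% interval of the fold change lay within 2-fold in either direction for 30 of 33 members, beside 85.5% of all tested genes, and the exceptions were Acacb, Cd36 and Cpt1c. The fitted fold change was below 0 on the log2 scale in 17 of 33 members, beside 48.1%, and the median of the members was -0.02 against 0.01 over all tested genes.

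**Figure D1:**
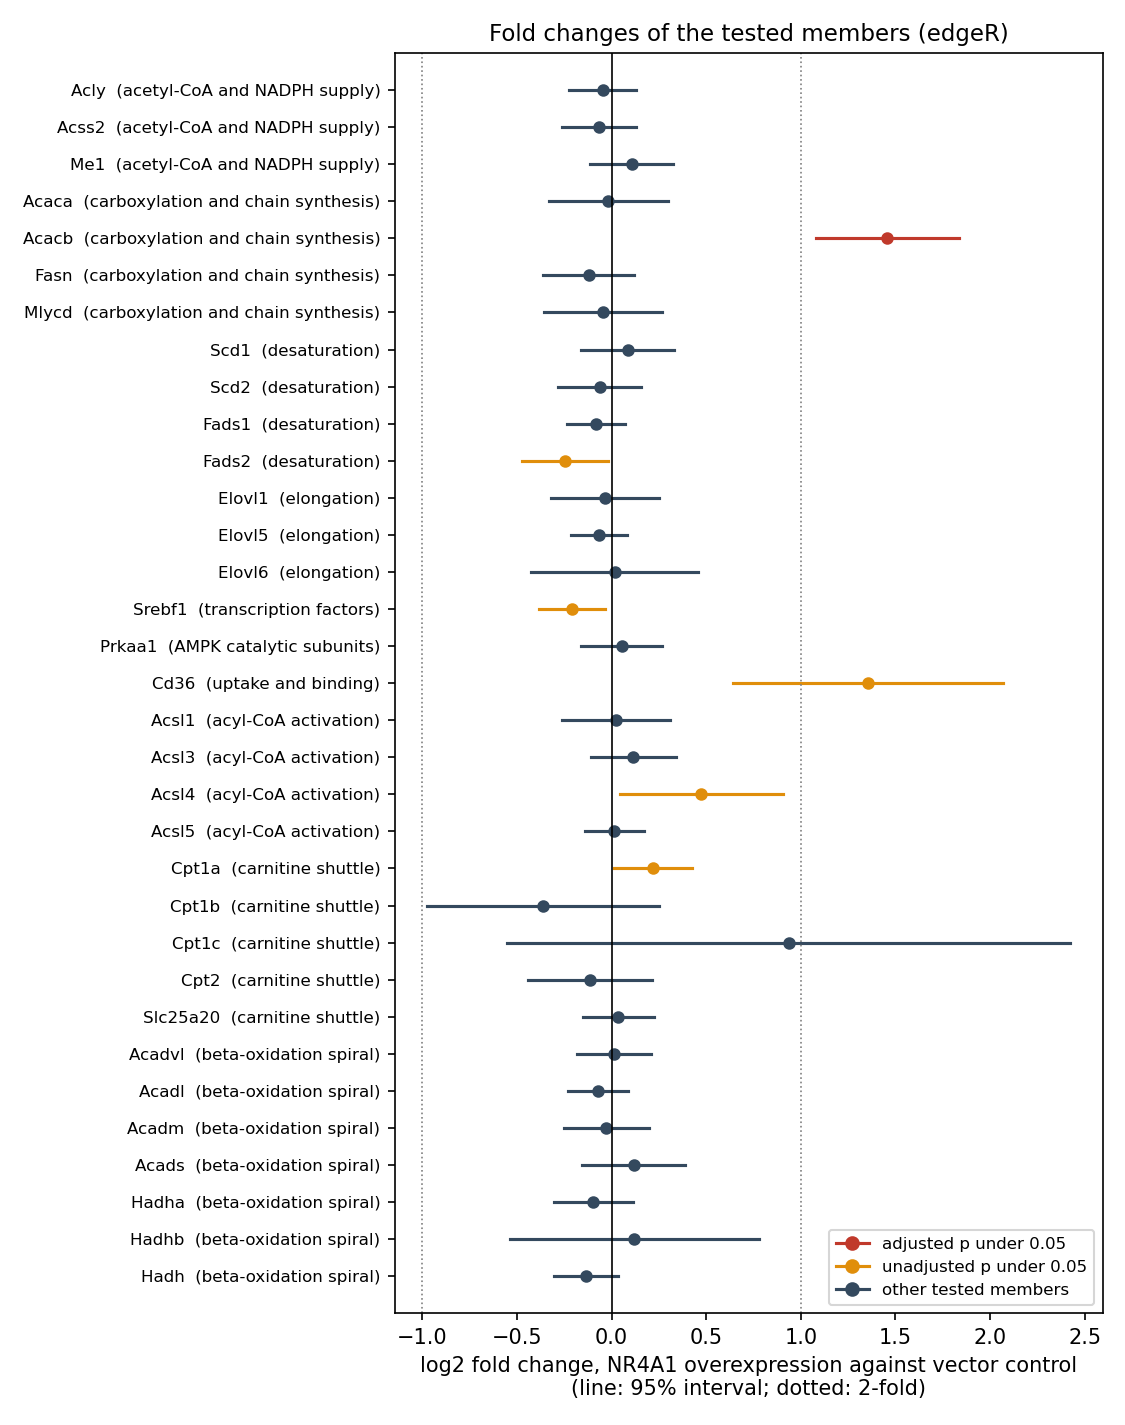
Fold changes of the 33 tested members, NR4A1 overexpression against vector control, on the log2 scale (x axis), with genes and their roles on the y axis. Points are edgeR estimates, lines are 95% intervals, dotted lines mark 2-fold, red is an adjusted p under 0.05 and orange an unadjusted p under 0.05. Acacb at 1.46 is the one red point, and most other intervals cross 0.

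Levels between genes were compared as FPKM, which divides the count by gene length and library total. The gene lengths behind the deposited FPKM ran from 1508 bases for Fads2 to 20271 bases for Acaca, so the order of levels depends on these lengths. In the vector libraries the delta-9 desaturase gene Scd2 led the set at 462 ± 22.4 FPKM (SD, n = 3). The desaturase genes Fads2 and Scd1 followed at 123 ± 6.27 and 121 ± 11.8, and these neighbours did not differ beyond their spread. Next came the delta-5 desaturase gene Fads1 at 86.3 ± 0.846 and the long-chain acyl-CoA dehydrogenase gene Acadl at 64.5 ± 1.96 FPKM. The set thus had its highest transcripts in desaturation. At the other end, Acacb stood at 0.454 ± 0.0752 and Cd36 at 0.244 ± 0.0705 FPKM, while Fabp5, Prkaa2 and Mlxipl were below 0.04 FPKM.

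**Figure D2:**
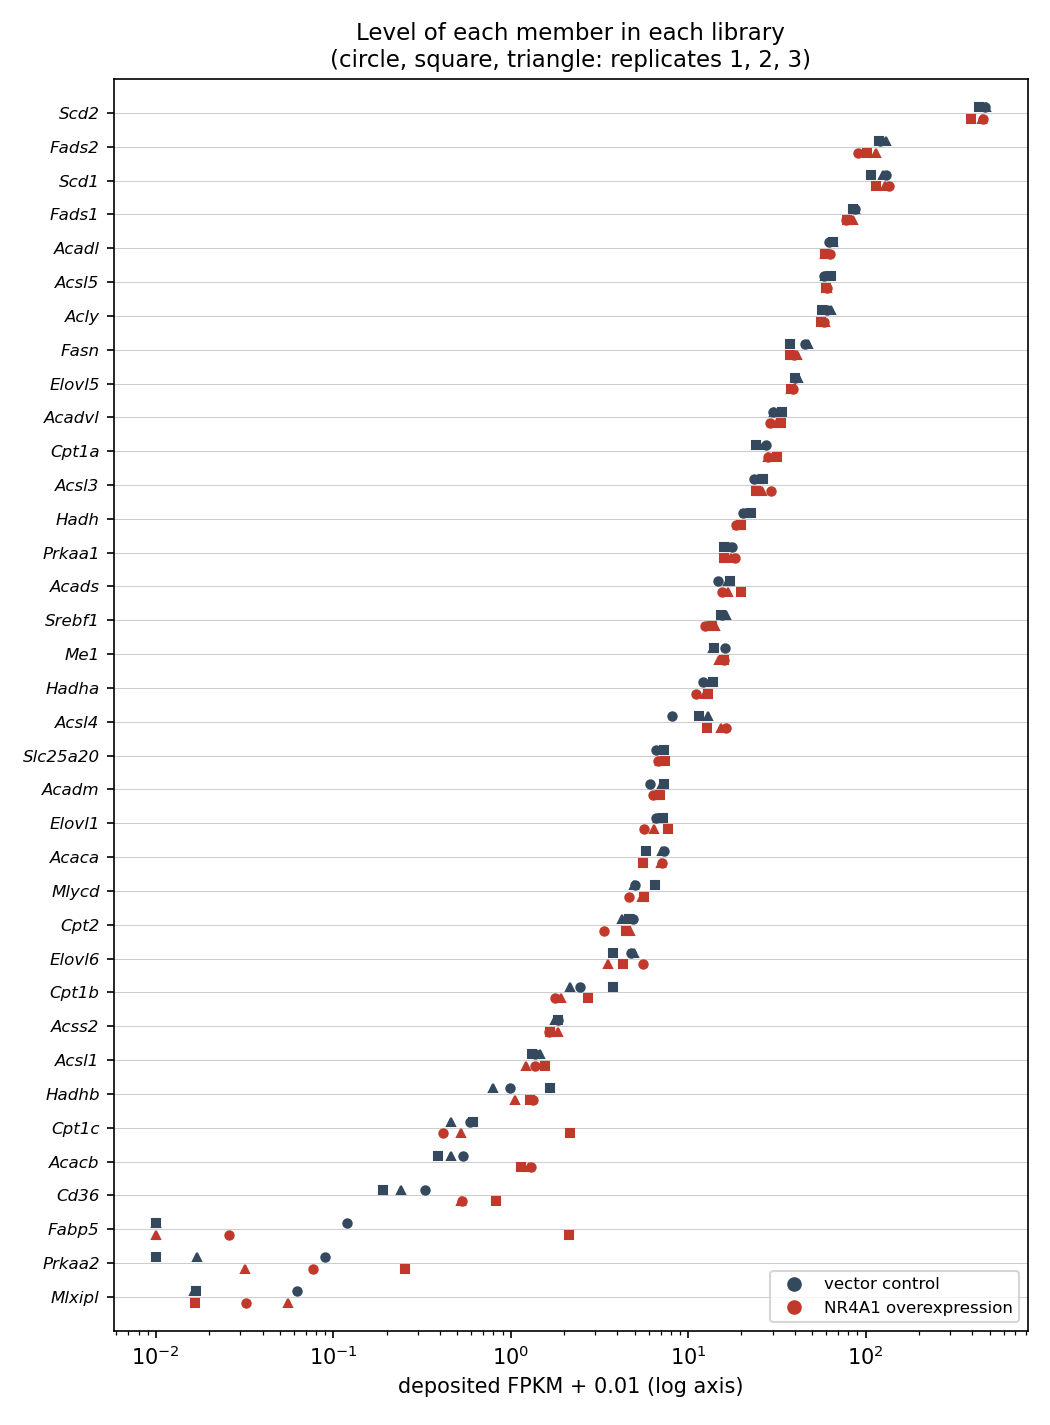
Deposited FPKM plus 0.01 on a log axis (x axis) for each of the 36 members (y axis), ordered by the vector mean, with 1 symbol per library. Dark blue is vector control and red is NR4A1 overexpression, and circles, squares and triangles are replicates 1, 2 and 3. Red and blue symbols overlap for most genes and separate clearly for Acacb and Cd36, while the red square of replicate 2 stands alone for Cpt1c and Fabp5.

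The enzymes that supply acetyl-CoA and NADPH did not pass the test. ATP-citrate lyase (Acly), which releases acetyl-CoA from citrate, was at 58.1, 55.9 and 59.0 FPKM in the NR4A1 libraries and at 60.9, 56.5 and 64.0 in the vector libraries, a log2 fold change of -0.05. Acss2, which makes acetyl-CoA from acetate, was at 1.71 ± 0.108 FPKM against 1.82 ± 0.0421. Me1, the malic enzyme that makes NADPH, was at 15.6 ± 0.625 FPKM against 14.7 ± 1.30. The groups overlapped for all 3 genes.

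Acacb codes for acetyl-CoA carboxylase 2, the form that sits at the mitochondrial outer membrane and makes the malonyl-CoA that restrains CPT1. It lies on chromosome 5 at chr5:114146535-114250761 (plus strand, GRCm38). Its counts were 254, 251 and 285 in the NR4A1 libraries and 119, 82 and 104 in the vector libraries. Scaled by library size these were 17.2, 15.0 and 16.5 CPM against 6.89, 4.89 and 5.89 CPM, so each NR4A1 library lay above each vector library and replicate 2 was the lowest of its group. The log2 fold change was 1.46 (SE 0.160, 95% interval 1.08 to 1.83, edgeR adjusted p = 0.0399). No 50-base stretch of its transcripts was shared with another gene of GENCODE M21. The log2 fold change was 1.51 without NR4A1 replicate 2, with an edgeR adjusted p of 0.0267. The call was lost without any 1 of the other libraries, with edgeR adjusted p-values of 0.161 without NR4A1 replicate 1, 0.214 without NR4A1 replicate 3, and 0.0859, 0.140 and 0.188 without vector replicates 1, 2 and 3. The log2 fold change then stayed between 1.34 and 1.58. On deposited FPKM, limma gave adjusted p-values of 0.224 and 0.241 with pseudocounts of 1 and 0.1, and log2 fold changes of 0.62 and 1.27.

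Acaca, the cytosolic carboxylase that feeds chain synthesis, did not pass the test. It was at 7.07, 5.56 and 7.04 FPKM in the NR4A1 libraries and 7.31, 5.75 and 7.12 in the vector libraries, with a log2 fold change of -0.02 (95% interval -0.33 to 0.30). Of its 50-base stretches, 30.4% were shared with other genes, most often Gm5182, so part of its reads could be assigned elsewhere. Among the summed FPKM of both carboxylases, Acacb made up 15.5%, 16.97% and 15.2% in the NR4A1 libraries and 6.76%, 6.18% and 5.99% in the vector libraries. The share was thus higher in each NR4A1 library, and Acaca remained the larger part at 84.1% ± 0.960 against 93.7% ± 0.400 (SD, n = 3). The share restates the Acacb change and was not tested.

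Fasn, the fatty acid synthase, was at 39.4, 37.6 and 41.3 FPKM in the NR4A1 libraries and at 45.6, 37.7 and 47.2 in the vector libraries. Its log2 fold change of -0.12 (95% interval -0.36 to 0.12) did not pass the test, and vector replicate 2 was as low as the NR4A1 group. Mlycd, which breaks down malonyl-CoA, was at 5.25 ± 0.523 against 5.49 ± 0.891 FPKM. Within this step of the pathway, 1 of 4 genes passed the adjusted threshold.

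**Figure D3:**
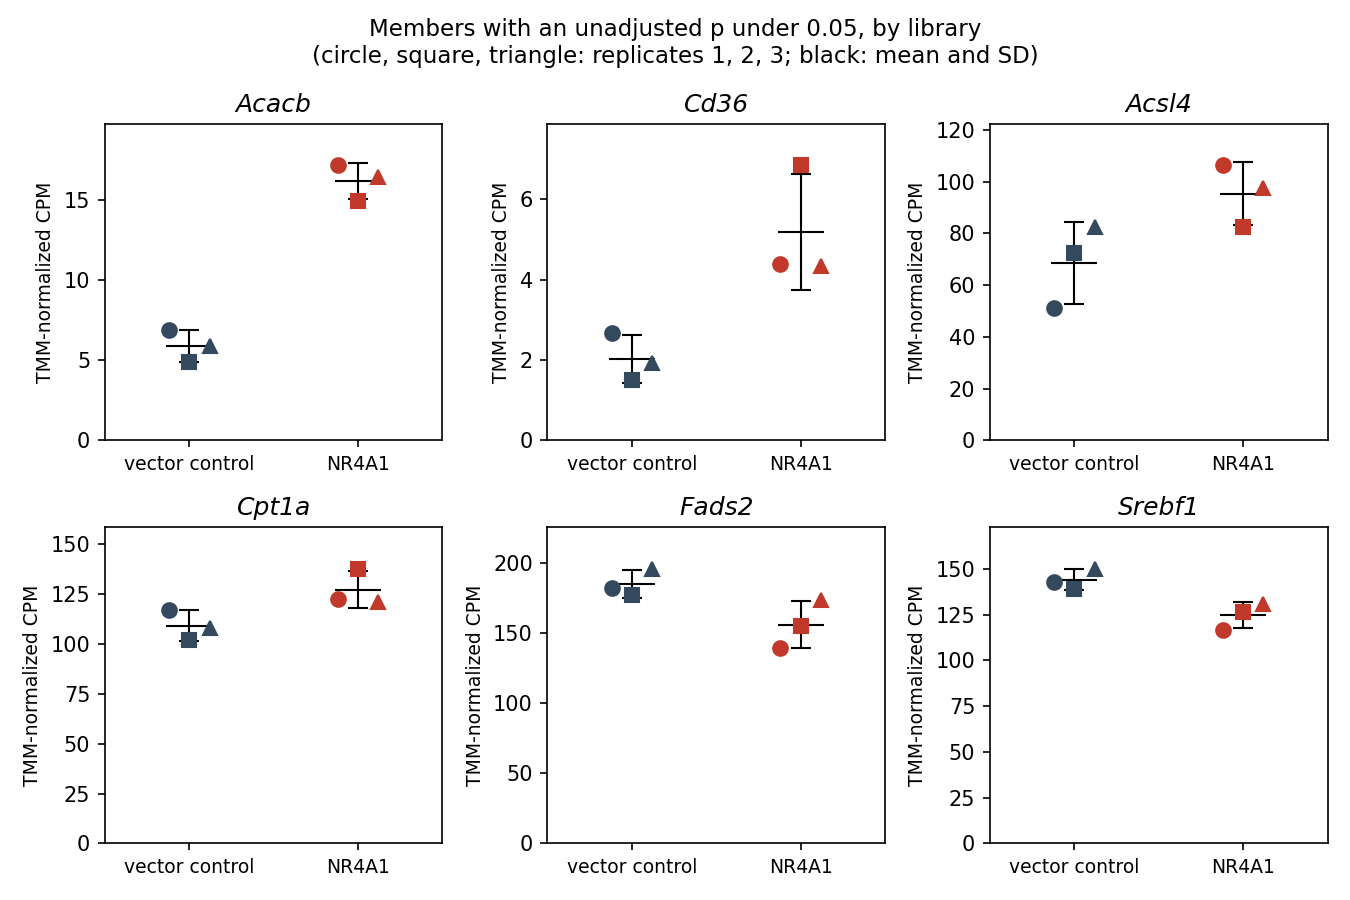
TMM-normalized CPM (y axis, from 0) in each library for the 6 members with an unadjusted p under 0.05, by group (x axis). Circles, squares and triangles are replicates 1, 2 and 3, and black bars give the mean and SD of 3 libraries. Acacb separates widely (14.95 to 17.2 against 4.89 to 6.89), Cd36 separates at low levels, and in Acsl4 the highest vector library at 82.4 nearly meets the lowest NR4A1 library at 82.5.

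None of the 4 desaturase genes passed the adjusted threshold. Fads2, the delta-6 desaturase that starts the synthesis of polyunsaturated fatty acids (chr19:10064164-10101503, minus strand), was at 139.5, 155 and 173 CPM in the NR4A1 libraries and 182, 177 and 196 in the vector libraries. The groups did not overlap, and the highest NR4A1 library lay just below the lowest vector library. This gave a log2 fold change of -0.25 (SE 0.0959, 95% interval -0.47 to -0.02, edgeR adjusted p = 0.731). Fads1 was at 80.3 ± 3.72 FPKM against 86.3 ± 0.846, with a log2 fold change of -0.08. Scd1, which makes oleate from stearate, was at 126 ± 10.4 FPKM against 121 ± 11.8, and Scd2 at 436 ± 36.3 against 462 ± 22.4. Scd1 shared 4.56% of its 50-base stretches with other genes, most often Scd2. As a share of both, Scd1 made up 22.5% ± 0.194 in the NR4A1 libraries and 20.7% ± 0.917 in the vector libraries, and Fads1 made up 44.0% ± 1.89 of the front-end desaturases against 41.2% ± 1.06. Both shares were higher in each NR4A1 library than in each vector library. They restate the changes of the single genes and were not tested. Fads1 itself was not higher, and its share rose because the fold change of Fads2 was further below 0.

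The elongases add carbon pairs to the chain. Elovl5, which acts on polyunsaturated fatty acids, was at 153, 149 and 147 CPM in the NR4A1 libraries and 155, 154 and 161 in the vector libraries. The groups did not overlap, yet the log2 fold change was -0.07 (SE 0.0628, edgeR adjusted p = 0.921). Elovl1 was at 6.58 ± 1.05 FPKM against 6.84 ± 0.324, and Elovl6, which extends palmitate, at 4.47 ± 1.03 against 4.49 ± 0.625.

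Srebf1 codes for the sterol-regulated factor SREBP-1, which turns on fatty acid synthesis genes (chr11:60199089-60222581, minus strand). Its level was 117, 126 and 131 CPM in the NR4A1 libraries and 143, 139 and 150.2 in the vector libraries, with no overlap. For Srebf1 the log2 fold change was -0.21 (SE 0.0746, 95% interval -0.38 to -0.03, edgeR adjusted p = 0.673). Mlxipl, the gene of the glucose-responsive factor ChREBP, had 3, 1 and 7 counts in the NR4A1 libraries and 8, 1 and 1 in the vector libraries, too few for a comparison. The AMPK catalytic subunit gene Prkaa1, whose kinase inhibits acetyl-CoA carboxylase, was at 17.3 ± 1.21 FPKM against 16.9 ± 0.923. It made up 99.3% ± 0.738 of the summed FPKM of both AMPK catalytic genes in the NR4A1 libraries and 99.8% ± 0.251 in the vector libraries. Prkaa2 had 8, 33 and 3 counts against 11, 0 and 1, so its highest value was in NR4A1 replicate 2.

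For uptake, Cd36, the scavenger receptor that carries long-chain fatty acids across the cell membrane, lies at chr5:17781690-17888801 (minus strand). It had 65, 115 and 75 counts in the NR4A1 libraries and 46, 25 and 34 in the vector libraries. These were 4.39, 6.85 and 4.33 CPM against 2.66, 1.49 and 1.93, so the groups did not overlap and replicate 2 was the highest. Cd36 thus had a log2 fold change of 1.35 (SE 0.304, 95% interval 0.64 to 2.07, edgeR adjusted p = 0.292). Cd36 passed with DESeq2 (adjusted p = 0.0161) and not with edgeR. Without NR4A1 replicate 2, the library with high endothelial, adipocyte and muscle markers, the log2 fold change was 1.10 (edgeR adjusted p = 0.374). The part of those markers in this value was not tested. Fabp5 had 1, 151 and 0 counts against 8, 0 and 0, so nearly all of its counts were in that same library.

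Acyl-CoA synthetases join a fatty acid to coenzyme A before any further use. Acsl4, which prefers arachidonate (chrX:142317993-142390535, minus strand), was at 106, 82.5 and 97.4 CPM in the NR4A1 libraries and 51.3, 72.3 and 82.4 in the vector libraries. The groups touched at 82.4 and 82.5, and vector replicate 1 was the lowest. The log2 fold change was 0.47 (SE 0.183, 95% interval 0.05 to 0.90, edgeR adjusted p = 0.724), and without vector replicate 1 it was 0.30. Acsl5, the highest of the family, was at 60.2 ± 0.401 FPKM against 60.5 ± 3.08. Acsl3, which overlaps Utp14b on the same strand, was at 26.5 ± 2.63 against 24.9 ± 1.62, and Acsl1 at 1.37 ± 0.169 against 1.37 ± 0.0705. Of the family's summed FPKM, Acsl5 made up 58.6% ± 2.35 in the NR4A1 libraries and 62.1% ± 1.99 in the vector libraries, and Acsl4 made up 14.4% ± 1.17 and 11.03% ± 2.19, with overlap for both.

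**Figure D4:**
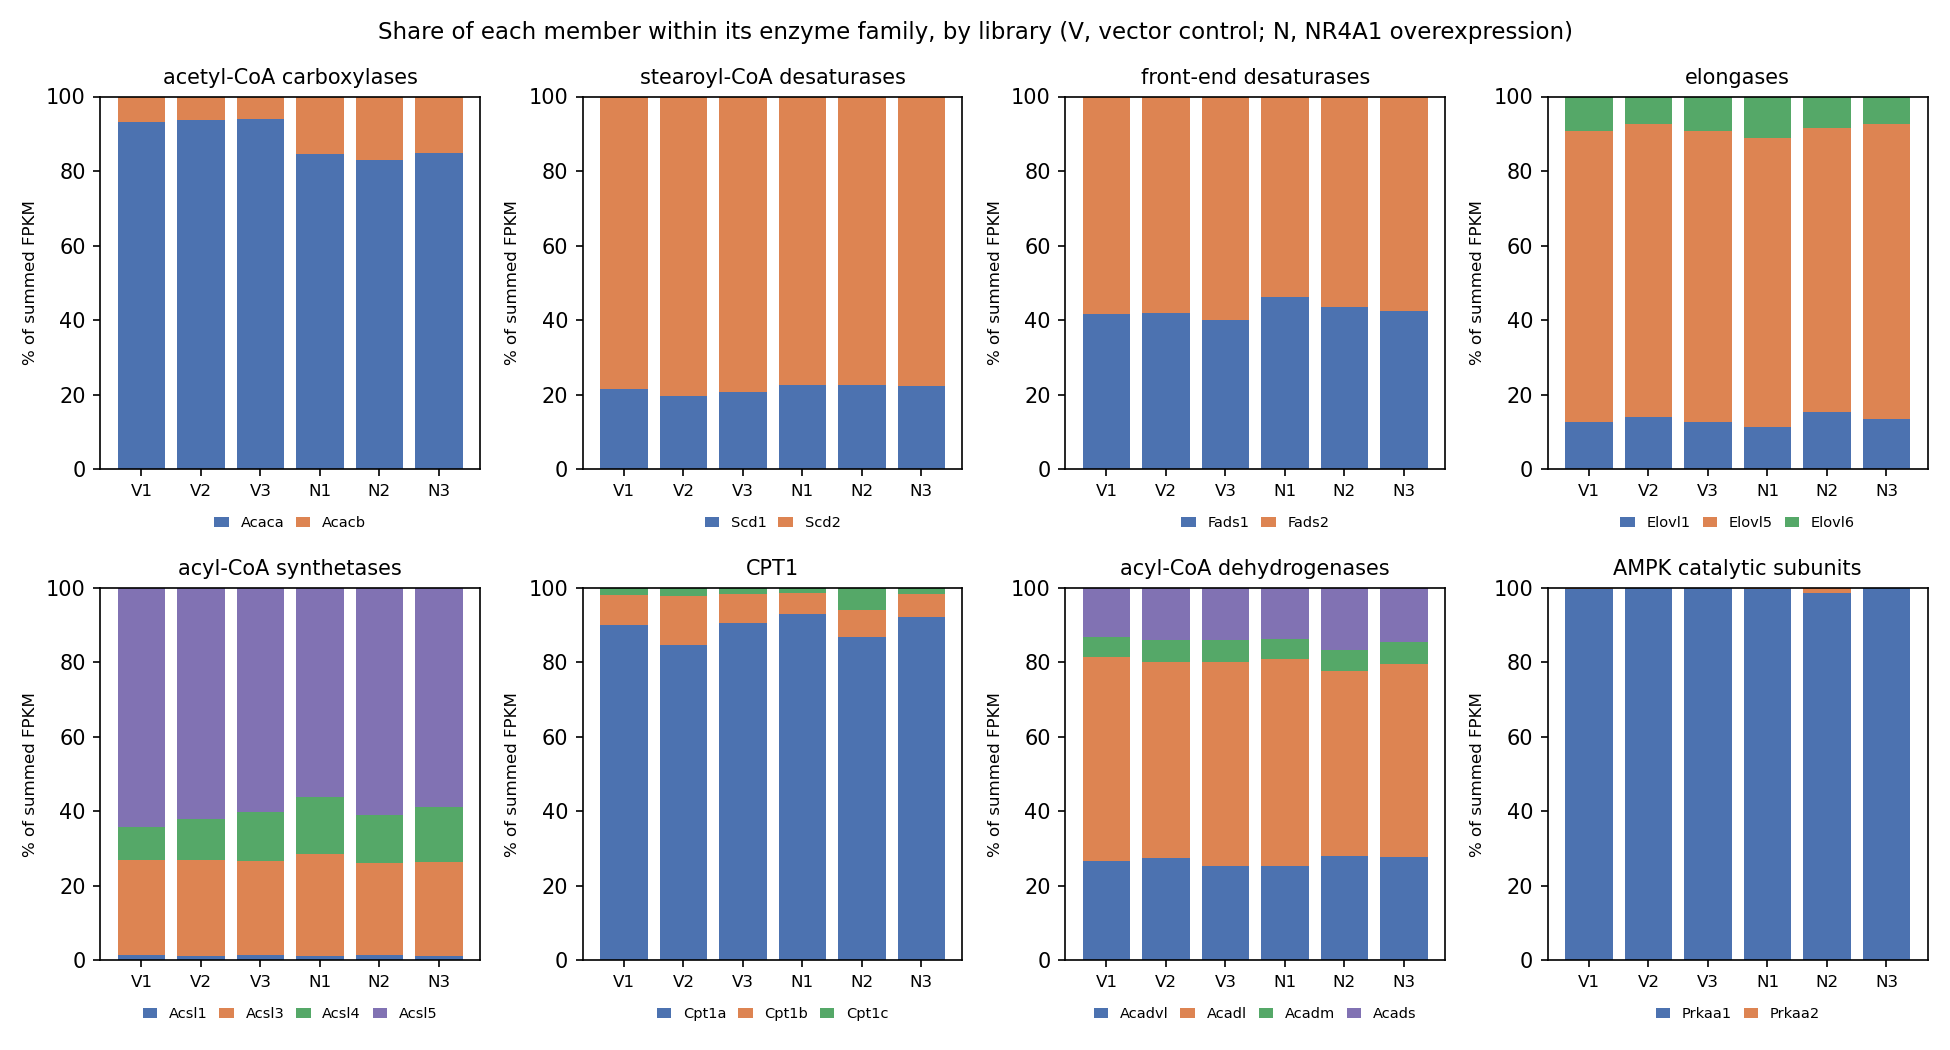
Share of each member in the summed FPKM of its enzyme family (y axis, percent), 1 bar per library (x axis, V for vector control and N for NR4A1 overexpression). Acacb takes 15.2% to 16.97% of the carboxylase FPKM in N1 to N3 and 5.99% to 6.76% in V1 to V3, and Acaca, the rest of that family, differs by the same amount in the other direction. The shares in the other families differ less between the group means.

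In the carnitine shuttle, CPT1 loads the acyl group on carnitine, the carrier Slc25a20 moves it inward and CPT2 returns it to coenzyme A. Cpt1a, the liver-type form (chr19:3323301-3385732, plus strand), was at 123, 138 and 121 CPM in the NR4A1 libraries and 117, 102 and 108 in the vector libraries. The lowest NR4A1 library lay just above the highest vector library. The log2 fold change was 0.22 (SE 0.0878, 95% interval 0.01 to 0.43, edgeR adjusted p = 0.735), and it was 0.16 without NR4A1 replicate 2. Cpt1a held 90.5% ± 3.35 of the CPT1 FPKM in the NR4A1 libraries and 88.4% ± 3.29 in the vector libraries. Cpt1b, the muscle-type form, was at 2.13 ± 0.519 FPKM against 2.79 ± 0.843. Of its 50-base stretches, 78.6% were shared with other genes, most often the overlapping gene model Gm44502, so its count is uncertain. Its share of the CPT1 FPKM was 6.51% ± 0.835 against 9.69% ± 3.06, lower in each NR4A1 library than in each vector library. The Cpt1b share was not tested, and the groups overlapped in Cpt1b CPM. Cpt1c, the brain form, had 17, 102 and 25 counts against 28, 28 and 22. Its log2 fold change of 0.94 became -0.22 without NR4A1 replicate 2, so it rests on that library. Cpt2 was at 4.18 ± 0.731 FPKM against 4.59 ± 0.348, and Slc25a20 at 7.05 ± 0.341 against 6.98 ± 0.359.

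Of the 7 beta-oxidation enzymes, edgeR called 0 at an adjusted p under 0.05 and 0 at an unadjusted p under 0.05. DESeq2 called 0, and all 7 intervals lay within 2-fold. Over all tested genes, edgeR called 0.240% at an adjusted p, and 4.02% higher and 2.44% lower at an unadjusted p under 0.05. The interval lay within 2-fold for 85.5% of all tested genes, so these counts do not set the 7 enzymes apart. The acyl-CoA dehydrogenases open each round for different chain lengths. Acadvl, for very long chains, was at 31.3 ± 2.22 FPKM against 31.5 ± 2.05, and Acadl at 60.5 ± 2.09 against 64.5 ± 1.96. Acadm, for medium chains, was at 6.63 ± 0.290 against 6.86 ± 0.660, and Acads, for short chains, at 17.4 ± 2.21 against 16.3 ± 1.27. Acadl was the largest part of the 4 dehydrogenases, at 52.3% ± 2.87 against 54.2% ± 1.20. Hadh, the short-chain hydroxyacyl-CoA dehydrogenase, was at 102, 108 and 104 CPM in the NR4A1 libraries and 109, 121 and 114 in the vector libraries, with no overlap. Its log2 fold change was -0.13 (SE 0.0721, 95% interval -0.30 to 0.04, edgeR adjusted p = 0.834). Hadha and Hadhb code for the alpha and beta subunits of the mitochondrial trifunctional protein, yet Hadha was at 12.1 ± 0.970 FPKM against 13.1 ± 0.962 and Hadhb at 1.22 ± 0.149 against 1.14 ± 0.461. Hadhb shared 19.7% of its 50-base stretches with other genes, most often Gm13910, so the gap in level between the subunits is uncertain. The enzyme gene Me1 had 22.9% of its stretches in common with other genes, most often Gm7049, and its value is uncertain in the same way.

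Counting groups that did not overlap in CPM gave 4 members higher (Acacb, Cd36, Acsl4 and Cpt1a) and 4 lower (Fads2, Elovl5, Srebf1 and Hadh) of 33. Over all tested genes, 6.69% were higher and 6.22% lower by this rule. The median coefficient of variation of the members was 7.01% in the vector libraries and 7.58% in the NR4A1 libraries, beside 8.96% and 11.3% over all tested genes. NR4A1 replicate 1 was the lowest library for 11 members and the highest for 7. NR4A1 replicate 2 was the highest for 8, and vector replicates 2 and 3 for 7 each.

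Promoter sequences from RefSeq on GRCm38.p6, from 250 bases before to 50 bases after a transcription start, were matched for 31 of 36 members by symbol, which gave 37 promoters. Scd1, Scd2, Fabp5, Fads1 and Cpt1b had no match. The NBRE letters AAAGGTCA, read on both strands, were in 0 of the 37 promoters and in 1.51% of 32851 promoters. The shorter AGGTCA core, which the NBRE contains, was in 9 of 37 (24.3%) and in 16.3% of all promoters. The 9 genes were Acacb, Acadm, Acadvl, Acly, Cd36, Cpt1a, Cpt1c, Elovl1 and Elovl6. The Acacb promoter sequence ended before all NBRE letters could be read at its core match. The search therefore cannot say whether Acacb has the NBRE letters there. The sterol regulatory element letters TCACNCCAC were in the promoters of Acsl1 and Mlxipl, 5.41% of the members' promoters beside 1.24% of all. Of the 6 members with an unadjusted p under 0.05, 3 hold the core, and its 30-base window is given for each with the match in capitals. All 3 read TGACCT, the reverse complement, on the gene's strand. They lie at chr5:114165538-114165567 (Acacb, plus strand), chr5:17836107-17836136 (Cd36, minus strand) and chr19:3323195-3323224 (Cpt1a, plus strand).

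Acacb: gacttgcctggttttctcctgccTGACCTt
Cd36: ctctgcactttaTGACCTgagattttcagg
Cpt1a: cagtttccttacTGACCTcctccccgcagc

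The match began at base 44 after the Acacb start, and at bases -228 for Cd36 and -94 for Cpt1a, counted from the start. The RefSeq starts of Acacb and Cd36 used here lie inside the gene models given above. These are letter matches and not measured binding sites, and other transcription starts of these genes were not searched.

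Beside the members, 154 genes of neighbouring lipid pathways in 10 lists were examined, of which 153 were found in the table and 122 were tested. With edgeR, 0 of the 122 passed an adjusted p of 0.05, and DESeq2 also called 0. At an unadjusted p under 0.05, 5 were higher and 9 lower, beside 4.02% and 2.44% of all tested genes. Of the 122, 74 had a fold change below 0 on the log2 scale, beside 48.1%, and the median was -0.04 against 0.01. By group overlap, 7 were wholly higher and 16 wholly lower, beside 6.69% and 6.22%.

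Among the 10 lists, sterol synthesis and uptake showed the most uniform sign. Of 20 tested genes, 18 were below 0, beside 48.1% of all tested genes, and the median log2 fold change was -0.16. At an unadjusted p under 0.05, 3 were lower, beside 2.44%. The sterol dehydrogenase gene Nsdhl, at 41.6, 45.2 and 43.3 CPM against 49.6, 55.3 and 50.1, had a log2 fold change of -0.25 (edgeR adjusted p = 0.646). No gene of this list passed the adjusted threshold in edgeR or DESeq2.

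Of the 9 SREBP and LXR control genes, 7 were below 0, beside 48.1% of all tested genes, and 3 were lower at an unadjusted p under 0.05, beside 2.44%. Srebf2, the sterol branch of the SREBP family, had a log2 fold change of -0.22 (edgeR adjusted p = 0.688). Insig1, which retains SREBP in the endoplasmic reticulum, had one of -0.20 (edgeR adjusted p = 0.678), and Nr1h3, the gene of LXR alpha, one of -0.26 (edgeR adjusted p = 0.761). These 3 genes were named by a rule that requires groups without overlap. In the whole list, 4 of 9 genes were wholly lower and 0 wholly higher, beside 6.22% and 6.69% of all tested genes.

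Oxidation lists were mixed, with 36.8% of mitochondrial and 53.8% of peroxisomal genes below 0, beside 48.1% of all tested genes. At an unadjusted p under 0.05 in edgeR, 4.02% of all tested genes were higher and 2.44% lower. The 1 gene at that p in each list is near these shares. The mitochondrial list had 7 of 19 genes below 0 and a single gene at an unadjusted p under 0.05, the acyl-CoA dehydrogenase gene Acad11, at 27.0, 28.8 and 27.0 CPM against 21.2, 21.2 and 21.1. Its log2 fold change was 0.38 (edgeR adjusted p = 0.193). The peroxisomal list had 7 of 13 genes below 0 and 1 gene at that p, Hsd17b4, with 0.22 (edgeR adjusted p = 0.731). In the list of PPAR and PGC-1 control, Lpin1, which makes diacylglycerol and acts as a coactivator, had 0.47 (edgeR adjusted p = 0.665). Among PPAR targets, Pdk4, which holds back pyruvate oxidation, had 0.21 (edgeR adjusted p = 0.753).

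In the remaining lists, the chain-elongation dehydratase gene Hacd3 had a log2 fold change of 0.18 (edgeR adjusted p = 0.736). Fads3, a neighbour of Fads2, had -0.24 (edgeR adjusted p = 0.683). The lipid droplet gene Plin4 had -0.44 (edgeR adjusted p = 0.334), and Lipe, the hormone-sensitive lipase, -0.22 (edgeR adjusted p = 0.644). Of the other uptake carriers, 0 of 6 and of the other AMPK subunits and kinases 0 of 9 had an unadjusted edgeR p under 0.05. Over all tested genes, 4.02% were higher and 2.44% lower at that p. Fabp4 with 560 counts, Lpl with 289 and Angptl4 with 80 were highest in NR4A1 replicate 2. Elsewhere, any of these genes had at most 57 counts. The endothelial markers were also high in that library. Fabp4 is itself 1 of the 7 adipocyte markers and made up 33.4 of their 36.9 CPM there, so that list is no separate comparison for it.

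**Figure D5:**
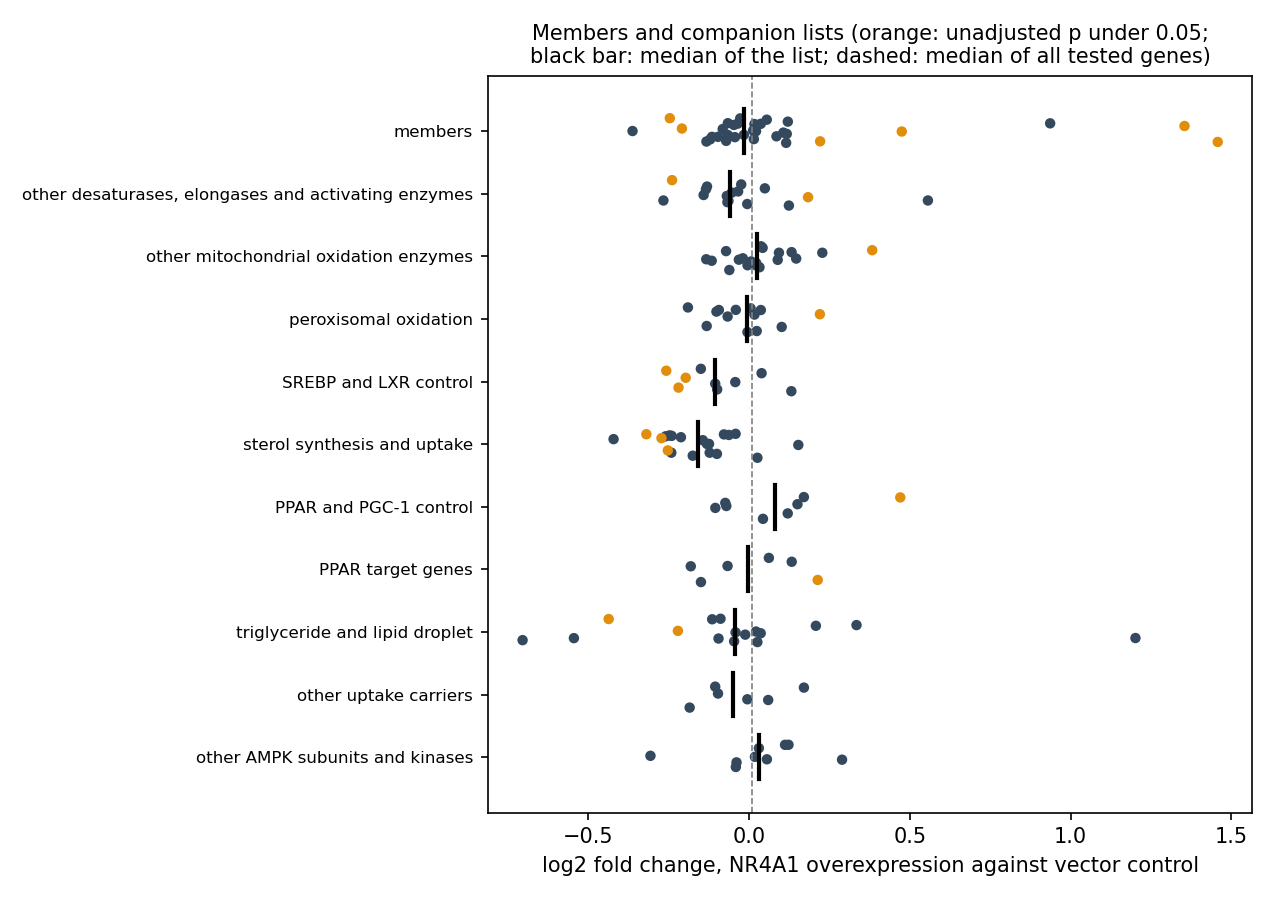
Log2 fold changes (x axis) of the tested members and of 10 lists of neighbouring lipid genes (y axis), 1 point per gene. Orange marks an unadjusted p under 0.05, black bars are list medians, and the dashed line is the median of all tested genes at 0.01. Sterol synthesis and uptake has its bar at -0.16, and Acacb and Cd36 are the far right points of the members.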

How the data were processed

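Read counts and FPKM per gene were deposited in 1 table for 6 libraries, 3 per group. The counts that the authors deposited come from reads for which the submitters' processing notes name HISAT2 2.0.4 and GRCm38.p4; the counting program is not given in the sources used here. Each FPKM value deposited by the authors equals the count divided by a fixed gene length and the library total (largest deviation 5.20e-06% over 10002 genes). From the counts, edgeR 4.0.16 in R 4.3.3 was used with TMM factors, filterByExpr and the quasi-likelihood test over 12941 genes, with Benjamini-Hochberg adjustment. Genes at an unadjusted p under 0.05 were counted in the same edgeR fit. The smallest amount considered was 3 counts (0.170 to 0.203 CPM), which covers counting error only. The members and lists were chosen with earlier results of these data known. Of the neighbouring genes, up to 3 per list with the smallest p under 0.05 and no overlap were named (some genes that met this rule are not reported here), and Fabp4, Lpl and Angptl4 were added after their values were seen. DESeq2 1.42.0 and limma 3.58.1 served as alternatives.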

Additional observations from a re-analysis of the deposited data

How the results depend on the processing

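The fits were repeated under 14 alternatives, 8 with all 6 libraries and 6 leaving out 1 library each. Of the 33 tested members, 20 kept their direction in every alternative in which they were fitted. The number of members past an adjusted p of 0.05, with or without a 2-fold change, was 1 in edgeR, 2 with DESeq2 (Acacb and Cd36), 0 with limma on log2(FPKM + 1) or log2(FPKM + 0.1), 0 with the replicate block and 0 to 1 when 1 library was left out. The Acacb log2 fold change was 0.62 with limma and a pseudocount of 1 (adjusted p = 0.224), 1.27 with 0.1 (adjusted p = 0.241), 1.47 with the replicate block (adjusted p = 0.0822) and 1.34 to 1.58 with 1 library left out; a pseudocount of 1 shrinks genes near 1 FPKM by construction. Members higher at an unadjusted p numbered 4, against 2 with either limma fit and 2 to 3 with 1 library left out. Those lower numbered 2, against 0 to 3. Cd36 was not fitted with limma, which kept only genes with a mean of at least 1 FPKM in either group. Non-overlapping lower members numbered 4, against 5 with library totals and 4 to 8 with 1 library left out (7 and 8 without vector replicates 1 and 2). Non-overlapping higher members numbered 4, against 3 with library totals and 4 to 6 with 1 library left out. Companion genes at an unadjusted p numbered 5 higher, against 2 with library totals and 2 to 7 with 1 library left out (2 without vector replicates 1 or 3, 3 without NR4A1 replicates 2 or 3 or vector replicate 2), and 9 lower, against 15 with the replicate block. Deviations of same-numbered libraries correlated at -0.01, -0.05 and 0.25, and 2 of 6 libraries correlated best with their own number. With 3 libraries per group, these values cannot settle whether same-numbered libraries were paired. The median of the members was -0.02, against -0.0359 with library totals and -0.0350 to 0.00823 with 1 library left out.

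Sign changes occurred in 13 members. With library totals, limma at a pseudocount of 1 and limma at 0.1, the log2 fold change was -0.00425, -0.0142 and -0.0193 for Elovl6, -0.00532, -0.00561 and -0.00568 for Acsl5, and -0.00728, -0.00923 and -0.00951 for Acadvl. For Acsl1 it was -0.00199 and -0.00520 with the limma fits. With 1 library left out, the ranges were -0.121 to 0.0892 for Acaca, -0.114 to 0.0927 for Mlycd, -0.112 to 0.00403 for Scd2, -0.165 to 0.0585 for Elovl1, -0.180 to 0.156 for Elovl6, -0.0733 to 0.102 for Acsl1, -0.00710 to 0.0537 for Acsl5, -0.215 to 1.31 for Cpt1c, -0.216 to 0.0160 for Cpt2, -0.00323 to 0.0691 for Slc25a20, -0.0350 to 0.0634 for Acadvl, -0.104 to 0.0181 for Acadm and -0.09002 to 0.488 for Hadhb. The cause of these changes was not tested. Mlxipl and Prkaa2 had too few counts for a comparison at this depth.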
